A study of Mus musculus with 26 samples.

Results

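Cdkn1a, Mdm2, Trp53inp1, Ccng1, Sesn2, Bbc3, Bax, Phlda3, Zmat3 and Eda2r are direct transcriptional targets of p53 that act in cell cycle arrest, in feedback on p53 and in cell death. These 10 genes were taken by name from the 55291 gene rows of each of the 2 RNA-seq count tables and not by their values, and they are described here across 10 groups of mouse ESCs (embryonic stem cells) and of NPCs (neural progenitor cells) made from them.

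The transcription factor p53, encoded by Trp53, is held at a low level by the ubiquitin ligase Mdm2 and is stabilized when DNA is damaged or cells are stressed. It then binds pairs of short half-sites in DNA and raises the transcription of genes that stop the cell cycle, repair damage, limit growth or start apoptosis, and also of Mdm2, which closes a feedback loop. Mouse ESCs are known for a high level of p53 RNA and a short G1 phase, and p53 in these cells is linked to differentiation as well as to the damage response.

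The question behind the study was whether RNA binding by the zinc finger ZF1 of the chromatin factor CTCF matters for cell-specific chromatin loops and gene expression. CTCF rescue lines of E14 cells formed the groups ESC-WT, NPC-WT, ESC-ΔZF1 and NPC-ΔZF1 (n = 2 libraries each). In all 4 groups both endogenous Ctcf alleles carried mAID-eGFP, 1 Rosa26 allele carried OsTir1(F74G) and Tigre carried a doxycycline-inducible Flag-Halo-CTCF, which was WT or had a deletion within ZF1 (ΔZF1). Cells of all 4 groups, the WT controls included, received 1 µM 5-Ph-IAA and 1 µg/ml doxycycline for 24 h, so that the rescue protein stood in for degraded CTCF. Each rescue protein was represented by a single clone, and differences between ΔZF1 and WT cannot be told apart from differences between these clones. The second table held untreated E14 WT cells and the RNA truncation lines Podxl pA and Grb10 pA, each as ESCs and as NPCs (n = 3 libraries per group). In the pA lines an eGFP cassette with an SV40 polyadenylation signal was inserted into both alleles of Podxl or Grb10, to cut the RNA short. The labels do not say how many clones stood for each pA line. Differences between a pA line and E14 WT cannot be told apart from differences between clones. Cells labelled NPC were differentiated for 2 days. In the rescue lines the study describes treating cells that were already NPCs. Whether those 24 h fell within the 2 days is not stated. The study calls its RNA-seq replicates biological and the labels give no more detail, so p-values measure the spread between these libraries.

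Levels are given in CPM (read counts scaled to a common library size), with library sizes adjusted by TMM within each table. Each rescue library held between 6425179 and 28730435 counts and each library of the truncation table between 1907505 and 8845087, and all 10 genes passed the filter on low counts in both tables. A gene is called when its adjusted p-value (edgeR's quasi-likelihood test, Benjamini-Hochberg over all genes tested) was at most 0.05 and its log2 fold change at least 0.5 in size. The 2 tables were normalized separately, so no difference between them was tested. Libraries without overlap and counts of unadjusted p-values under 0.05 are given as description. Their shares over all genes were not counted. The NPC-WT libraries differed from each other more than those of any other group, with a median absolute log2 difference from the group's other library of 0.57 over the 10 genes, against 0.04 to 0.10 in the other rescue groups, and mitochondrial genes took 2.01% of the counts in replicate 1 and 0.58% in replicate 2. Calls that rest on NPC-WT are therefore given with and without each of its libraries. In the truncation lines, ESC Grb10 pA replicate 2 stood apart, with 15.5% of its counts in the 10 most abundant genes. In NPCs of all 5 lines 9 or 10 of 10 pluripotency markers fell and 5 to 7 of 6 to 8 neural progenitor markers tested rose, among them Sox1. Extraembryonic endoderm markers rose as well, 10 to 14 of them in each line, and their summed level was 7189 to 7306 CPM in NPC-ΔZF1 against 1657 to 2031 CPM in NPC-WT. Surface ectoderm markers rose for 9 of 9 genes in both rescue lines. Their summed level was 201 to 281 CPM in ESC-WT against 3118 to 4538 CPM in NPC-WT, and 175 to 210.5 CPM in ESC-ΔZF1 against 1268 to 1334 CPM in NPC-ΔZF1. In E14 WT, Podxl pA and Grb10 pA, 2 to 4 of 8 rose and 1 to 3 fell. The part of these cells in the differences between NPCs and ESCs was not tested.

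The start regions that hold a match to the p53 consensus are shown, with the other start region of Cdkn1a beside its first, from RefSeq (GRCm38.p6), from 250 bases before to 50 bases after a transcript's start, because the genes share p53 as their regulator. RefSeq entries were matched for 8 of the 10 genes, with 11 start regions in all, and Trp53inp1 and Zmat3 had none. Capitals mark p53 half-sites, 10 bases long, which consist of 3 purines, a core of C, A or T, A or T, and G, and 3 pyrimidines. This consensus reads the same on both strands. A half-site with every base in place is in capitals, as are half-sites that pair within 13 bases with at most 2 mismatches outside the cores.
Cdkn1a (chr17:29090729-29091028, plus strand): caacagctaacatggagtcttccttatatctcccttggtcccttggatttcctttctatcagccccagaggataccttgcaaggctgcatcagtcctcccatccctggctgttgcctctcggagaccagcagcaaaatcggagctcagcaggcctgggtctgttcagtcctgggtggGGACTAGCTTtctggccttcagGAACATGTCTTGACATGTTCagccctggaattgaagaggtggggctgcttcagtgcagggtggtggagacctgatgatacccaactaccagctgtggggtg
Cdkn1a (chr17:29093519-29093818, plus strand): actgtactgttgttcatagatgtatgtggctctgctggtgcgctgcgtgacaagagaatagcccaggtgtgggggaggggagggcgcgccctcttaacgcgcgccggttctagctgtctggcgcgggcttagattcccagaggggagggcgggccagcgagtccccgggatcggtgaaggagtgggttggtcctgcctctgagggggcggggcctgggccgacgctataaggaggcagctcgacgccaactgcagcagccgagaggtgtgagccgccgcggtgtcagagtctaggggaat
Mdm2 (chr10:117710709-117711008, minus strand): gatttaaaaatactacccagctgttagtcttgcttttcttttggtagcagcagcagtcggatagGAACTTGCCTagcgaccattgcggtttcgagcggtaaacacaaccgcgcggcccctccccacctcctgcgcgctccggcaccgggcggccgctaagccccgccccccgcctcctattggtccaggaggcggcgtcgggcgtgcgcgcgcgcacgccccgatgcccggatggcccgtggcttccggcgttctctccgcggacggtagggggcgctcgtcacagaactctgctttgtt
Ccng1 (chr11:40755237-40755536, minus strand): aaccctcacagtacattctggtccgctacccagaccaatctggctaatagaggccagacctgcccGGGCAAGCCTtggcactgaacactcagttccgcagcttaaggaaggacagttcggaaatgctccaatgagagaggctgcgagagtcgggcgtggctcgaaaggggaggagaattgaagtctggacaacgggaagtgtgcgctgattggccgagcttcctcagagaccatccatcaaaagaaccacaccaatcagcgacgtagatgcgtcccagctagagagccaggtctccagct
Bax (chr7:45466849-45467148, minus strand): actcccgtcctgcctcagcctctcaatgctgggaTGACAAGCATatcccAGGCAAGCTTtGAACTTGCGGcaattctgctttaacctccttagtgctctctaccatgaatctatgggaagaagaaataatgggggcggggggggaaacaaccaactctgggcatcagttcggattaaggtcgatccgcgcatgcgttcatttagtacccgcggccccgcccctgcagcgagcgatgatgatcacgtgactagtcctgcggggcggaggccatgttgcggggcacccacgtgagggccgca

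Exact half-sites lay in 4 of the 11 start regions, against 8.36% of the 32851 mouse start regions in the same table, and pairs of half-sites in 2 of 11, against 2.12%. The upstream start region of Cdkn1a held exact half-sites 73 and 51 bases before the start, which pair across 12 bases, and the second is followed without a gap by a further half-site with 1 mismatch. The downstream start region of Cdkn1a held none. In Bax an exact half-site began 201 bases before the start, and it pairs with half-sites of 2 mismatches each that begin 216 and 190 bases before the start. Mdm2 and Ccng1 each held a lone exact half-site, 186 and 185 bases before their starts. The p53-responsive promoter that Mdm2 is known for lies in an intron, outside this window. No exact half-site or pair was found in the windows of Sesn2, Bbc3, Phlda3 and Eda2r. These matches describe the letters in short windows only, and p53 binding was not measured in the data used here.

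The 10 genes were expressed in all 26 libraries. Their positions are given below as GENCODE M21 has them on GRCm38 (mm10), and each is a protein-coding gene. Per kilobase of annotated exon (GENCODE M21), Cdkn1a at 69.0 ± 7.08 CPM per kb and Bax at 65.9 ± 1.91 (SD, n = 3) led in ESC E14 WT and did not differ beyond their spread, followed by Sesn2 at 52.3 ± 6.96. Eda2r at 4.54 ± 0.751 and Bbc3 at 8.30 ± 0.285 CPM per kb were the lowest. In NPC E14 WT the order changed, with Sesn2 at 86.5 ± 0.920, Bax at 73.2 ± 3.52 and Ccng1 at 60.4 ± 6.18 at the top and Cdkn1a at 18.5 ± 1.88 beside Zmat3 at 19.0 ± 1.88 and Bbc3 at 18.9 ± 2.21. In the rescue lines Ccng1 led in ESC-WT at 81.8 ± 4.32 CPM per kb, in NPC-WT at 178 ± 58.2 and in NPC-ΔZF1 at 118 ± 3.41 (SD, n = 2), while in ESC-ΔZF1 Bax at 66.9 ± 1.43 and Ccng1 at 64.2 ± 3.87 did not differ beyond their spread.

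**Figure D1:**
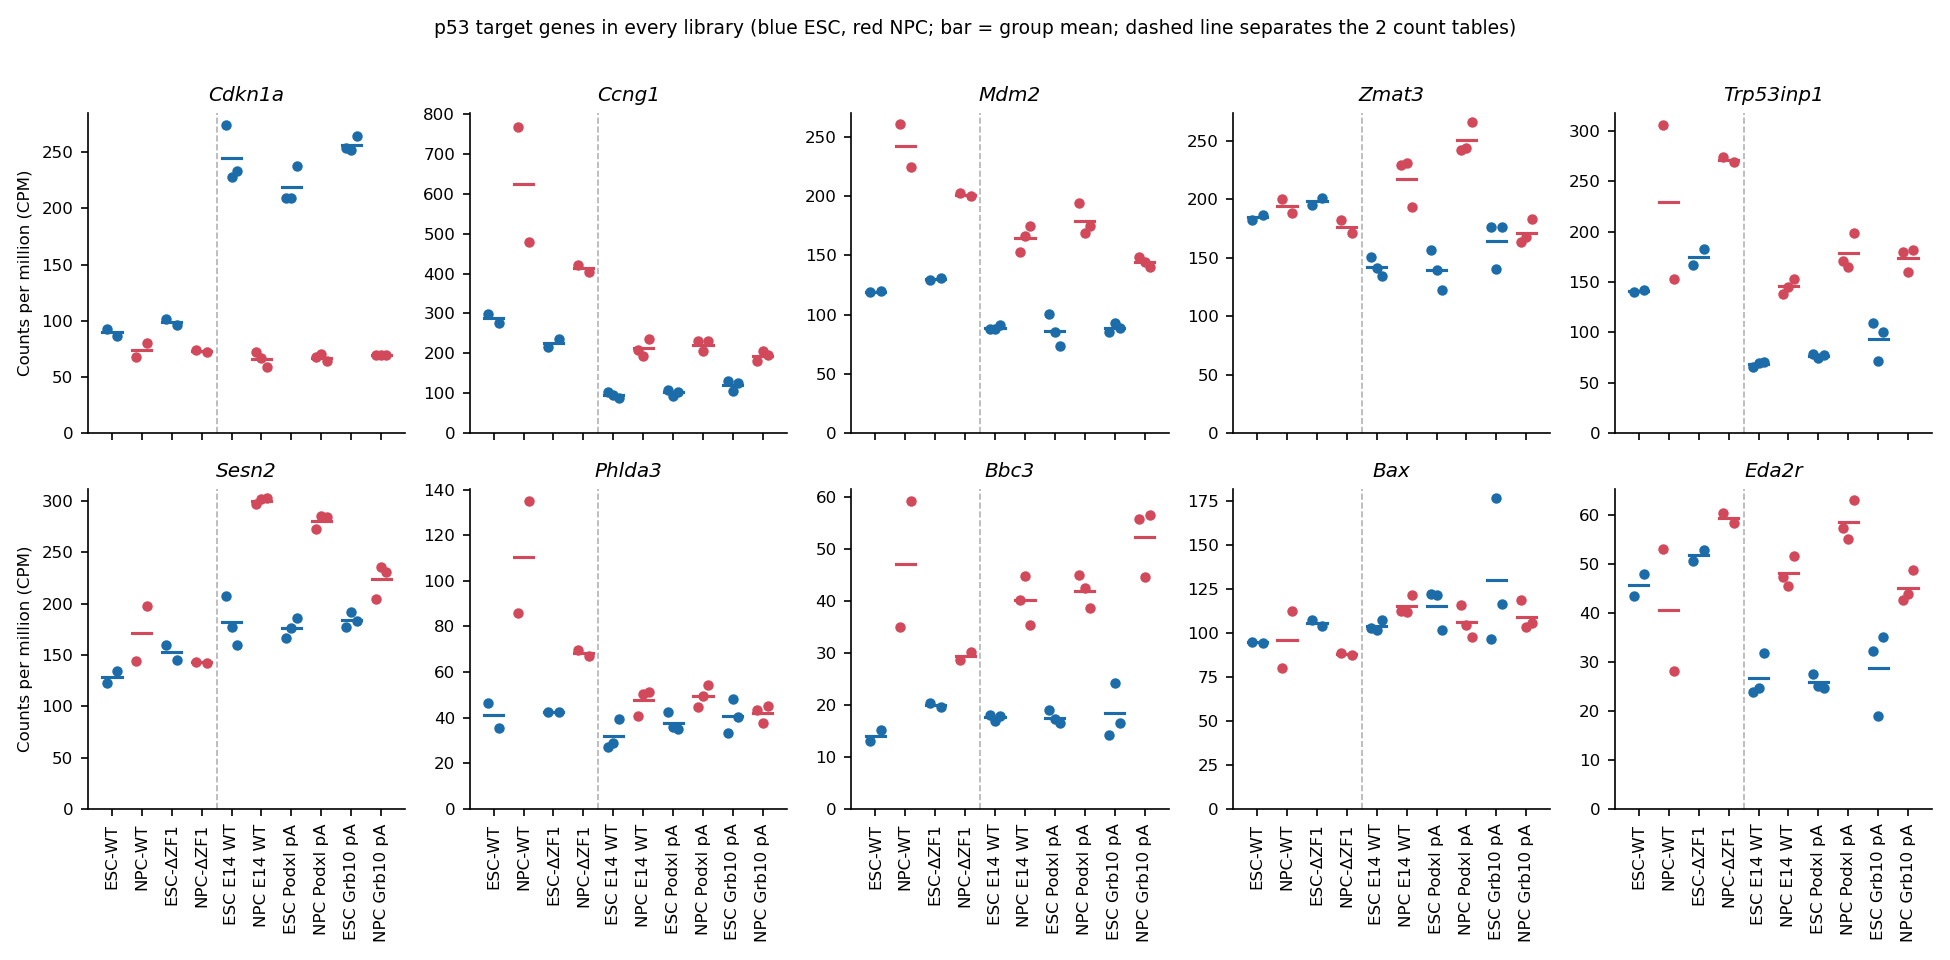
Level of each p53 target gene in CPM (y axis, linear, from 0) in every library of the 10 groups (x axis), with ESCs in blue, NPCs in red, a point for each library and a bar at the group mean; the dashed line separates the rescue lines from the separately normalized truncation lines. Cdkn1a is high in the 9 ESC libraries of the second table alone, Mdm2 and Ccng1 are higher in NPCs in every line, and the paired NPC-WT points lie far apart for Trp53inp1, Ccng1, Bbc3 and Phlda3.

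The comparison of NPCs with ESCs of the same line asked how the p53 targets change on differentiation. In E14 WT, 8 of the 10 genes rose and Cdkn1a fell. In Podxl pA 7 rose and Cdkn1a fell, and in Grb10 pA 5 rose and Cdkn1a fell. Of all genes tested, 16.5% rose and 16.3% fell in E14 WT, 17.1% and 14.7% in Podxl pA, and 17.2% and 17.4% in Grb10 pA. Among rescue cells 5 of 10 rose in NPC-WT relative to ESC-WT, where 22% of all genes rose and 19.9% fell, and 3 of 10 rose in NPC-ΔZF1 relative to ESC-ΔZF1, where 20.4% of all genes rose and 16.9% fell. None of the 10 fell in the rescue lines. The 10 genes had a median log2 fold change of 0.80 in E14 WT, 0.93 in Podxl pA, 0.44 in Grb10 pA, 0.56 in the WT rescue and 0.38 in the ΔZF1 rescue, where the median over every gene tested was -0.01, -0.02, -0.02, 0.01 and 0.02. Mdm2 and Ccng1 rose in all 5 lines, and Trp53inp1 and Bbc3 in 4. In bulk RNA, a change in the share of cells that express a gene and a change per cell cannot be told apart.

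**Figure D2:**
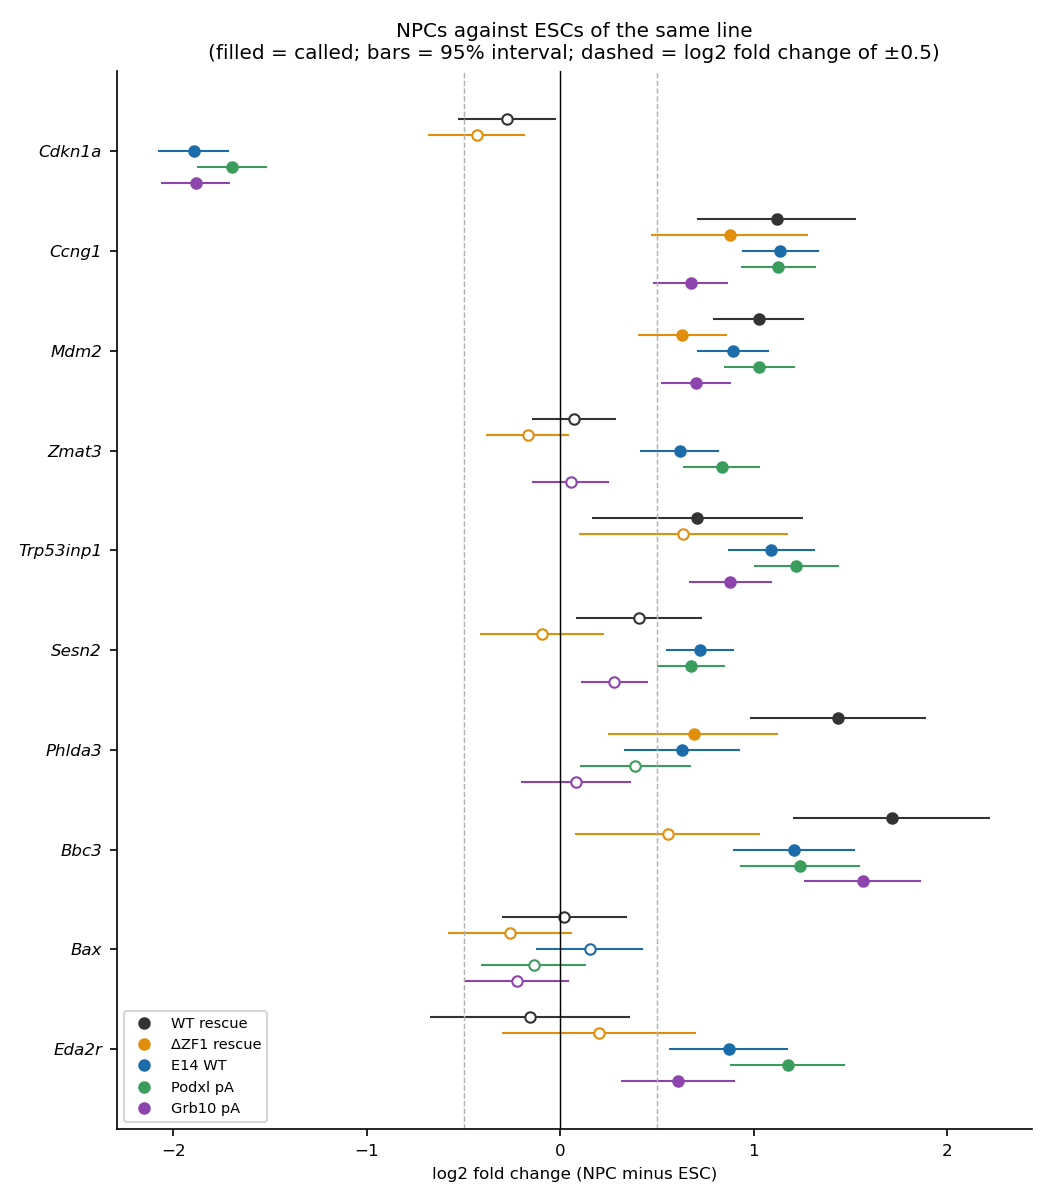
Log2 fold change of NPCs relative to ESCs of the same line (x axis) for the 10 genes (y axis) in the 5 lines, with 95% intervals as bars, filled points for called genes and dashed lines at 0.5 in either direction. Cdkn1a lies between -1.90 and -1.70 in the lines of the second table and between -0.43 and -0.27 in the rescue lines, Mdm2 and Ccng1 lie to the right in all 5, and Bax lies between -0.26 and 0.15.

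Cdkn1a (chr17:29090976-29100727) encodes p21, the inhibitor of cyclin-dependent kinases through which p53 stops cells in G1. Its level in ESC E14 WT was 274, 228 and 233 CPM, and in NPC E14 WT 71.8, 66.8 and 58.6 CPM. Every NPC library was far below every ESC library, and the gene was 3.72-fold lower in NPCs, with a log2 fold change of -1.90 ± 0.09 (SE) and an adjusted p of 9.49e-16 by edgeR. Podxl pA went from 209 to 238 CPM in ESCs to 64.0 to 70.2 CPM in NPCs, and Grb10 pA from 252 to 264 to 69.3 to 69.8 CPM. The falls there were 3.24-fold and 3.69-fold.

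Cdkn1a in the rescue lines was low already in ESCs. ESC-WT held 92.3 and 86.9 CPM and ESC-ΔZF1 101 and 96.7 CPM, beside 67.8 and 80.4 CPM in NPC-WT and 74.1 and 72.6 CPM in NPC-ΔZF1. NPCs were lower than ESCs in every library, but the difference was not called, with a log2 fold change of -0.27 ± 0.11 (SE) and an adjusted p of 0.0713 for WT and of -0.43 ± 0.11 (SE) and 0.0105 for ΔZF1 (edgeR). Without ESC-ΔZF1 replicate 2 the ΔZF1 value was -0.50, just past the fold cutoff. The ESC levels of the 2 tables did not overlap, at 86.9 to 101 CPM in the rescue lines and 209 to 274 CPM in the others, whereas NPC levels were 67.8 to 80.4 and 58.6 to 71.8 CPM. Drug treatment, CTCF replacement, clone and experiment all differ between the tables and cannot be told apart. Ccng1 and Trp53inp1 differed the other way. In ESCs of the rescue lines, Ccng1 at 216 to 298 CPM and Trp53inp1 at 139.8 to 183 CPM lay above the ESCs of the second table, at 88.9 to 129.6 and 65.4 to 109 CPM.

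Ccng1 (chr11:40748552-40755311) encodes cyclin G1, a p53 target that recruits a phosphatase to Mdm2 and also acts in the cell cycle. It rose in NPCs of all 5 lines. In E14 WT its level was 104, 94.3 and 88.9 CPM in ESCs and 208, 193 and 236 CPM in NPCs, a 2.20-fold rise with an adjusted p of 1.63e-10 by edgeR. Podxl pA NPCs were 2.18-fold and Grb10 pA NPCs 1.59-fold above their ESCs. In the rescue lines it went from 298 and 277 CPM in ESC-WT to 768 and 479 CPM in NPC-WT, where the 2 libraries differ widely but both lie above all ESC libraries. The WT log2 fold change was 1.12 ± 0.18 (SE), and 0.74 and 1.42 without NPC-WT replicate 1 and 2 in turn. ESC-ΔZF1 held 216 and 235 CPM and NPC-ΔZF1 422 and 405 CPM, a 1.83-fold rise.

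Among the genes of feedback and RNA control, Mdm2 (chr10:117688875-117710758) rose in all 5 lines. Its ESC and NPC levels in E14 WT were 87.9, 88.0 and 90.9 CPM and 153, 166 and 175 CPM, a 1.85-fold difference (log2 fold change 0.89 ± 0.09 (SE), edgeR adjusted p = 5.15e-09). The rise was 2.04-fold in Podxl pA and 1.63-fold in Grb10 pA. In the rescue lines ESC-WT held 119 and 119.6 CPM, NPC-WT 261 and 225 CPM, ESC-ΔZF1 129 and 131 CPM and NPC-ΔZF1 202 and 200.2 CPM. These are a 2.03-fold and a 1.55-fold rise, with no overlap between ESC and NPC libraries. The log2 fold change in the WT rescue was 1.02, and 0.91 and 1.13 without NPC-WT replicate 1 and 2 in turn. Mdm2 thus moved opposite to Cdkn1a in the 3 lines where both were called.

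Zmat3 (chr3:32334792-32366014) encodes an RNA-binding zinc finger protein that acts in splicing downstream of p53. It rose in 2 of the 5 lines. In E14 WT the libraries held 150.2, 141 and 134 CPM as ESCs and 229, 231 and 193 CPM as NPCs, a log2 fold change of 0.62 ± 0.10 (SE), and in Podxl pA 157, 139 and 123 CPM and 242, 243 and 266 CPM, one of 0.83 ± 0.10 (SE). Grb10 pA held 176, 140.5 and 176 CPM and 164, 167 and 183 CPM, with overlapping libraries and a log2 fold change of 0.05 ± 0.10 (SE). All 8 rescue libraries lay between 171 and 201 CPM, and neither rescue line gave a call.

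Trp53inp1, Sesn2 and Phlda3 are stress genes. Trp53inp1 (chr4:11156431-11174379), which acts in autophagy and in p53-dependent death, went from 65.4, 69.7 and 70.7 CPM in ESC E14 WT to 138, 146 and 153 CPM in NPC E14 WT, a 2.13-fold rise. Podxl pA and Grb10 pA rose 2.33-fold and 1.84-fold. In the WT rescue the ESCs held 139.8 and 142 CPM and the NPCs 306 and 153 CPM, so that NPC-WT replicate 2 lay close to the ESCs. The call there (log2 fold change 0.71 ± 0.24 (SE), edgeR adjusted p = 0.0355) rests on replicate 1, since without it the value was 0.12 with an adjusted p of 0.142, and without replicate 2 it was 1.12. The call was also lost without either ESC-WT library, at adjusted p-values of 0.141 and 0.149 (edgeR). In ΔZF1 the paired libraries lay close together, at 167 and 183 CPM in ESCs and 274 and 269.5 CPM in NPCs, but the adjusted p was 0.056 by edgeR and 0.0179 by DESeq2.

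Sesn2 (chr4:132492032-132510501), which restrains the growth kinase mTORC1, rose in E14 WT from 208, 177 and 160.0 CPM to 297, 302 and 303 CPM, a log2 fold change of 0.72 ± 0.09 (SE). It rose in Podxl pA by 0.68 and reached 0.28 in Grb10 pA, which was not called. The rescue groups held Sesn2 at 123 and 135 CPM in ESC-WT, 144 and 198 CPM in NPC-WT, 159 and 146 CPM in ESC-ΔZF1 and 144 and 142 CPM in NPC-ΔZF1, with no call in either line. Without NPC-WT replicate 1, however, Sesn2 was called in the WT rescue, at 0.61. Phlda3 (chr1:135766119-135769136) keeps the kinase Akt from the membrane. In E14 WT it went from 27.0, 29.1 and 39.2 CPM to 40.8, 50.6 and 51.2 CPM, with no overlap and a 1.54-fold rise. In Podxl pA and Grb10 pA the log2 fold changes were 0.39 and 0.08, and neither was called. The rescue lines held 46.6 and 35.7 CPM in ESC-WT against 86.0 and 135 CPM in NPC-WT, a 2.70-fold rise, and 42.3 and 42.6 CPM in ESC-ΔZF1 against 69.6 and 67.2 CPM in NPC-ΔZF1, a 1.61-fold rise. The WT log2 fold change of 1.43 was 1.77 without NPC-WT replicate 1 and 1.12 without replicate 2. For ΔZF1 leaving out any of the 4 libraries compared raised the edgeR adjusted p to between 0.066 and 0.0995.

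Of the death genes, Bbc3 rose in 4 lines and Bax in none. Bbc3 (chr7:16308393-16318205) encodes PUMA, a BH3-only protein that starts mitochondrial apoptosis. Per kilobase it was among the lowest pair of the 10 in every ESC group, together with Eda2r. It was at 18.1, 16.9 and 17.9 CPM in ESC E14 WT and reached 40.1, 44.8 and 35.4 CPM in NPC E14 WT, a 2.31-fold rise (edgeR adjusted p = 2.65e-07). The rise was 2.36-fold in Podxl pA and 2.95-fold in Grb10 pA. In the WT rescue it went from 13 and 15.2 CPM to 35.0 and 59.1 CPM, 3.28-fold, the largest rise of the 10 genes in that comparison. The log2 fold change of 1.71 was 2.03 without NPC-WT replicate 1 and 1.28 without replicate 2. In ΔZF1 it went from 20.4 and 19.6 CPM to 28.7 and 30.1 CPM, with an adjusted p of 0.0608 by edgeR and 0.0499 by DESeq2.

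Bax (chr7:45461697-45466898), the protein that perforates the mitochondrial membrane, stayed within a narrow band. E14 WT held 103, 101 and 107 CPM as ESCs and 112, 112 and 122 CPM as NPCs. The 95% intervals of its 5 log2 fold changes reached from -0.58 to 0.43. ESC Grb10 pA replicate 2, at 177 CPM, was the highest library, beside 96.5 and 116 CPM in its group. Eda2r (chrX:97333840-97377216) encodes a receptor of the TNF receptor family. It rose in all 3 lines of the second table, from 23.8, 24.7 and 31.8 CPM to 47.2, 45.4 and 51.6 CPM in E14 WT, 1.83-fold, 2.26-fold in Podxl pA and 1.53-fold in Grb10 pA. Without ESC Grb10 pA replicate 2 the log2 fold change in Grb10 pA was 0.43 in place of 0.61, under the fold cutoff. The rescue lines gave no call for it, at 43.4 and 47.9 CPM in ESC-WT, 53 and 28.2 CPM in NPC-WT, 50.5 and 52.9 CPM in ESC-ΔZF1 and 60.4 and 58.2 CPM in NPC-ΔZF1. Without NPC-WT replicate 1 it was called lower in NPC-WT than in ESC-WT, at -0.72.

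The comparison of ΔZF1 with WT rescue asked whether the deletion in ZF1 changes these genes. In ESCs none of the 10 was called, where 3.61% of all genes tested were called in either direction, and none of the 10 had an unadjusted p under 0.05 in edgeR. DESeq2 also called 0. The main fit shared its spread over all rescue groups, NPC-WT included. With the ESC libraries alone 1601 of all genes were called in place of 601, and still 0 of the 10. Ccng1, Trp53inp1, Bbc3 and Sesn2 had an adjusted p under 0.05 in at least 1 alternative, but were under the fold cutoff there. In the main fit the largest value was that of Bbc3, at 20.4 and 19.6 CPM in ESC-ΔZF1 against 13 and 15.2 CPM in ESC-WT. Its log2 fold change was 0.49 ± 0.23 (SE), with an adjusted p of 0.311 (edgeR). Only Ccng1 had a negative value, -0.35 ± 0.18 (SE), with both ESC-ΔZF1 libraries below both ESC-WT libraries. Ccng1 lies on chromosome 11, whose 1326 tested genes were shifted as a whole, their median being -0.46 on the log2 scale for ESCs and -0.57 for NPCs, and with that median taken out the value of Ccng1 was 0.11 in ESCs. Ctcf itself was higher in ESC-ΔZF1, at 860.0 and 831 CPM against 562 and 577 CPM in ESC-WT. It was likewise higher in NPC-ΔZF1, at 785 to 798 CPM against 449 to 474.5 CPM in NPC-WT. Endogenous and rescue transcripts cannot be told apart in these values. For Cdkn1a and Mdm2 in ESCs the 95% intervals of the log2 fold change were -0.11 to 0.40 and -0.11 to 0.36.

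In NPCs Ccng1, Bbc3 and Phlda3 were lower in NPC-ΔZF1 than in NPC-WT, 3 of the 10, and none was higher, where 10.5% of all genes fell and 7.19% rose. The levels in NPC-WT and NPC-ΔZF1 were 768 and 479 CPM and 422 and 405 CPM for Ccng1, with a log2 fold change of -0.59 ± 0.18 (SE) and an adjusted p of 0.0432. For Bbc3 they were 35.0 and 59.1 CPM and 28.7 and 30.1 CPM, -0.67 ± 0.21 (SE) and 0.0469. For Phlda3 they were 86.0 and 135 CPM and 69.6 and 67.2 CPM, -0.69 ± 0.19 (SE) and 0.0324 (edgeR). All of these ΔZF1 libraries lay below both NPC-WT libraries, which is a weak separation with 2 libraries in each group. The calls depended on single libraries. Ccng1 fell by 0.90 on the log2 scale without NPC-WT replicate 2 and by 0.21 without replicate 1. Bbc3 went the other way, with -1.01 without replicate 1 and -0.26 without replicate 2, as did Phlda3 with -0.98 and -0.34. Without either NPC-ΔZF1 library none of the 3 was called, and none when the fit held the NPC libraries alone. With the chromosome 11 median taken out, Ccng1 was at -0.03 (edgeR adjusted p = 0.931), and the adjusted p of Bbc3 was 0.0535 in that fit.

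The other 7 genes were not called in NPCs. Mdm2 was at 202 and 200.2 CPM in NPC-ΔZF1, below both NPC-WT libraries, with a log2 fold change of -0.27 ± 0.10 (SE) and an adjusted p of 0.0893 (edgeR). Cdkn1a at 74.1 and 72.6 CPM lay inside the range of NPC-WT, and the 95% interval of its log2 fold change was -0.26 to 0.24. Eda2r was higher in both NPC-ΔZF1 libraries, but its value of 0.53 ± 0.23 (SE) was 1.07 without NPC-WT replicate 1 and 0.15 without replicate 2. Trp53inp1 changed sign, from 0.82 without replicate 1 to -0.18 without replicate 2. Both genes were called higher in NPC-ΔZF1 without replicate 1. Extraembryonic endoderm markers were higher in NPC-ΔZF1 than in NPC-WT for 13 of 14 genes, with the summed levels given above. Surface ectoderm markers were lower for 7 of 9 and higher for 1, and no marker of either list was at 0 in all libraries of these groups. The part of these cells in the differences of the p53 targets was not tested. The test of the difference between the ΔZF1 effects in NPCs and ESCs called none of the 10, against 2.7% of all genes. The nearest was Bbc3, with -1.16 ± 0.31 (SE) and an adjusted p of 0.0907 by edgeR and 0.0105 by DESeq2, and 4 of the 10 had an unadjusted p under 0.05. Without NPC-WT replicate 1 that test called 6 of the 10 and without replicate 2 it called 4, where 27.9% and 9.81% of all genes were called in those fits. The value of Trp53inp1 was 0.51 in the first fit and -0.50 in the second fit. The rise of Ccng1, Bbc3 and Phlda3 from ESC-WT to NPC-WT and their lower level in NPC-ΔZF1 share the NPC-WT libraries and are not separate evidence.

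**Figure D3:**
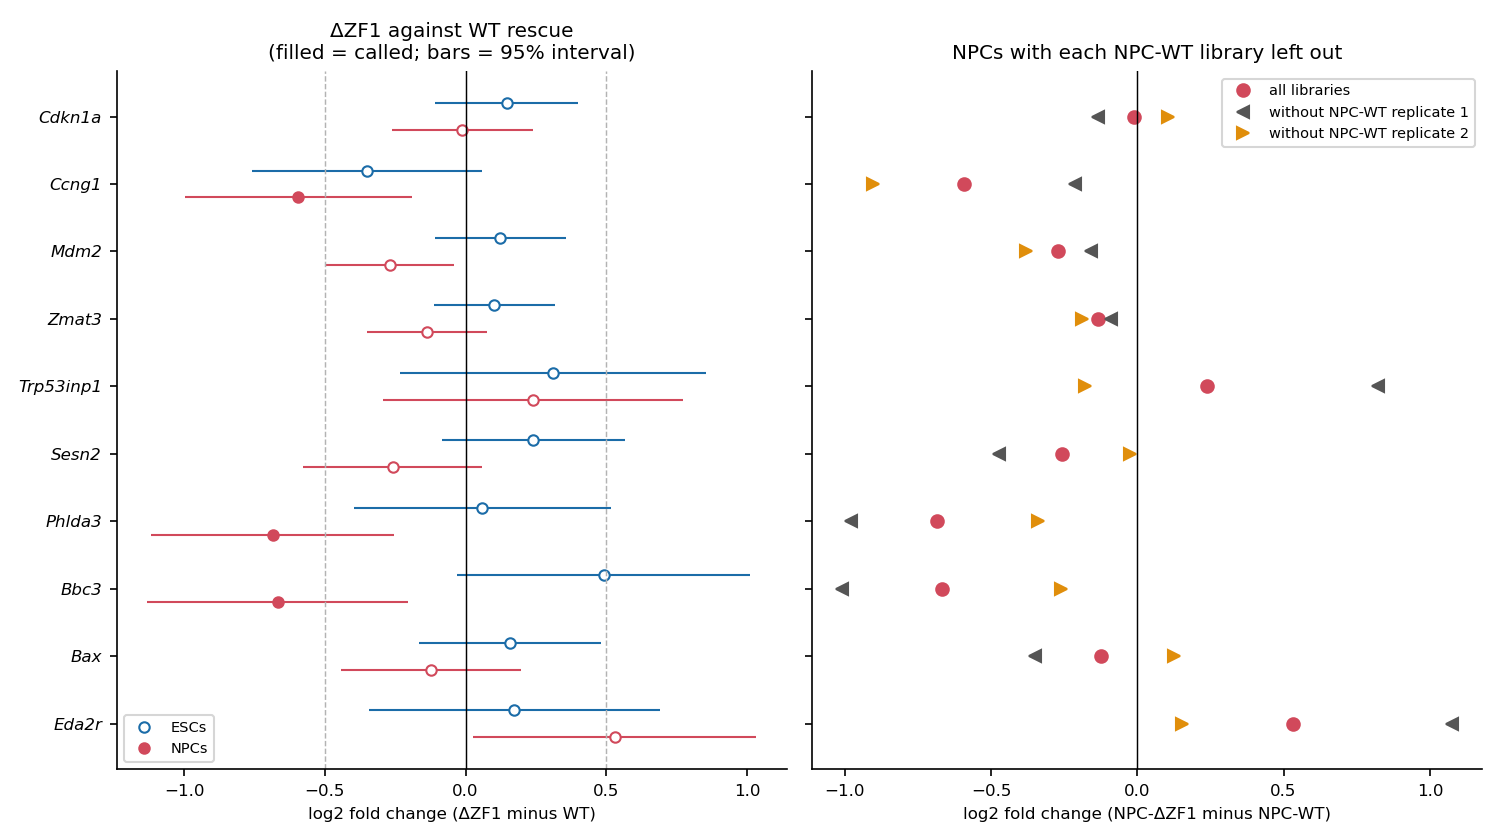
Left, log2 fold change of ΔZF1 relative to WT rescue (x axis) for the 10 genes in ESCs (blue) and NPCs (red), with 95% intervals and filled points for called genes; right, the NPC values again with all libraries (red) and with NPC-WT replicate 1 (grey) or replicate 2 (orange) left out. Ccng1, Phlda3 and Bbc3 are the called genes, at -0.59, -0.69 and -0.67, and the values of Trp53inp1, Bbc3, Ccng1 and Eda2r move most with the library left out.

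The RNA truncation lines were compared with E14 WT to see whether cutting short Podxl or Grb10 RNA changes the p53 targets. The Podxl pA and Grb10 pA comparisons share the E14 WT libraries. The truncated genes were lower as labelled in ESCs, with Podxl at 3.01 to 12.9 CPM in ESC Podxl pA against 26.4 to 34.9 CPM in ESC E14 WT and Grb10 at 30.4 to 35.3 CPM in ESC Grb10 pA against 118 to 127 CPM. They were lower in NPCs too, with Podxl at 20.8 to 24.3 CPM in NPC Podxl pA against 232 to 259 CPM in NPC E14 WT, and Grb10 at 52.1 to 59.4 CPM in NPC Grb10 pA against 769 to 814 CPM. In Podxl pA none of the 10 p53 targets was called in ESCs or NPCs, where 0.339% and 0.55% of all genes were called, and DESeq2 called 0 in both. In edgeR 1 gene in ESCs and 3 in NPCs had an unadjusted p under 0.05. Cdkn1a was at 209, 209.7 and 238 CPM in ESC Podxl pA, and its log2 fold change of -0.17 ± 0.08 (SE) had an adjusted p of 0.527. Trp53inp1 was higher in all NPC Podxl pA libraries than in all NPC E14 WT libraries, at 171, 165 and 199 CPM against 138, 146 and 153 CPM, but with 0.29 ± 0.10 (SE) and an adjusted p of 0.246 it was not called. Eda2r and Zmat3 were likewise higher in every NPC Podxl pA library and Sesn2 lower, with log2 fold changes of 0.29, 0.20 and -0.10 that were not called. Extraembryonic endoderm markers were higher in NPC Podxl pA for 7 of 12 genes, with a summed level of 2620 to 2790 CPM against 1496 to 1875 CPM in NPC E14 WT, and their part in these values was not tested. The difference between the Podxl pA effects in NPCs and ESCs gave no call among the 10, against 0.098% of all genes, and no unadjusted p under 0.05 in edgeR and 0 calls in DESeq2.

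In Grb10 pA none of the 10 genes was called either, where 9.09% of all genes were called in ESCs and 16.5% in NPCs. Chromosome 8, which holds none of the 10, was shifted as a whole in Grb10 pA. The median log2 fold change of its 731 tested genes was -0.49 in ESCs and -0.48 in NPCs. The shares over all genes include that shift, and no fit took it out. DESeq2 gave 0 calls among the 10 in both, and 5 of the 10 had an unadjusted p under 0.05 in each. All 10 log2 fold changes were positive in ESCs, with a median of 0.19 against 0.01 over all genes tested. They ran from 0.003 for Mdm2 to 0.47 for Trp53inp1, whose edgeR adjusted p was 0.00472 and which fell short of the fold cutoff alone. The values of Mdm2, Sesn2 and Bbc3 changed sign with single libraries left out, reaching -0.03, -0.07 and -0.20. Trp53inp1 was at 109, 71.5 and 101 CPM in ESC Grb10 pA and 65.4, 69.7 and 70.7 CPM in ESC E14 WT, and without ESC Grb10 pA replicate 2 its value was 0.61, past the cutoff. Phlda3, at 0.37 ± 0.15 (SE) and an edgeR adjusted p of 0.0944, was called without ESC Grb10 pA replicate 1, at 0.51, and without ESC E14 WT replicate 3, at 0.51. Ccng1 was at 129.6, 106 and 127 CPM against 104, 94.3 and 88.9 CPM, a log2 fold change of 0.34 ± 0.10 (SE) with an adjusted p of 0.0195 by edgeR. Extraembryonic endoderm markers were higher in ESC Grb10 pA for 3 of 12 genes, with sums of 458 to 522 CPM against 426 to 437 CPM, and their part in these values was not tested.

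In NPC Grb10 pA, the libraries of Sesn2, Zmat3 and Mdm2 were all below those of NPC E14 WT. Sesn2 was at 205, 236 and 231 CPM against 297, 302 and 303 CPM, a log2 fold change of -0.43 ± 0.08 (SE) with an adjusted p of 0.00036. Zmat3 was at 164, 167 and 183 CPM against 229, 231 and 193 CPM, with -0.35 ± 0.10 (SE) and an adjusted p of 0.0077 (edgeR). Mdm2 was at 149, 144 and 140.4 CPM against 153, 166 and 175 CPM, with -0.19 ± 0.09 (SE) and an adjusted p of 0.102 (edgeR). None of these passed the fold cutoff. Trp53inp1 was higher in every NPC Grb10 pA library, at 179.5, 160.3 and 182 CPM against 138, 146 and 153 CPM, but with 0.26 ± 0.10 (SE) and an edgeR adjusted p of 0.0565 it was not called. Bbc3 lay above on average, at 55.7, 44.6 and 56.4 CPM against 40.1, 44.8 and 35.4 CPM, with overlapping libraries and 0.37 ± 0.13 (SE). The summed level of the neural progenitor markers was 58.5 to 70.5 CPM in NPC Grb10 pA and 140.2 to 156.6 CPM in NPC E14 WT, with 5 of 6 tested markers lower, and that of the pluripotency markers 956 to 1029 CPM and 744 to 879 CPM, with 5 of 10 higher and 1 lower. Mesoderm markers were higher for 2 of 3 tested, with a summed level of 70.4 to 87.2 CPM against 36.9 to 42.1 CPM. Of the extraembryonic endoderm markers 3 of 12 were lower, at sums of 1381 to 1656 CPM against 1496 to 1875 CPM, and of 8 surface ectoderm markers 2 were higher and 1 was lower. Olig2, Hes5, Dbx1 and Neurog2 of the neural list were at 0 in all NPC Grb10 pA libraries. Olig2, Dbx1 and Neurog2 were also at 0 in all NPC Podxl pA libraries, and Hes5 and Dbx1 in both NPC-WT libraries. No neural marker was at 0 in all NPC E14 WT libraries. The part of these markers' cells in the differences was not tested.

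The Grb10 pA effect differed between NPCs and ESCs for Zmat3, which was called at -0.56 ± 0.14 (SE) with an adjusted p of 0.0135, where 3.04% of all genes were called lower and 2.86% higher. This is the same contrast as the weaker rise of Zmat3 on differentiation, 0.05 in Grb10 pA against 0.62 in E14 WT. It was called in all 17 alternatives, with values from -0.65 to -0.51. Ccng1 at -0.46 ± 0.13 (SE) and Sesn2 at -0.44 ± 0.12 (SE) had adjusted p-values of 0.0347 and 0.026 (edgeR) and stayed under the fold cutoff. For Cdkn1a the 95% interval of this difference was -0.24 to 0.26. Leaving out single libraries raised the count from 1 to as many as 3. It was 3 without ESC Grb10 pA replicate 1 (Bax, Phlda3 and Zmat3) or ESC E14 WT replicate 1 (Ccng1, Sesn2 and Zmat3). Those fits called 949 and 537 of the 13268 genes tested, against 783 in the main fit. It was 2 without ESC Grb10 pA replicate 2, ESC E14 WT replicate 3, NPC Grb10 pA replicate 2 or NPC E14 WT replicate 2. In that order these fits called 711, 733, 565 and 502 of all genes.

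**Figure D4:**
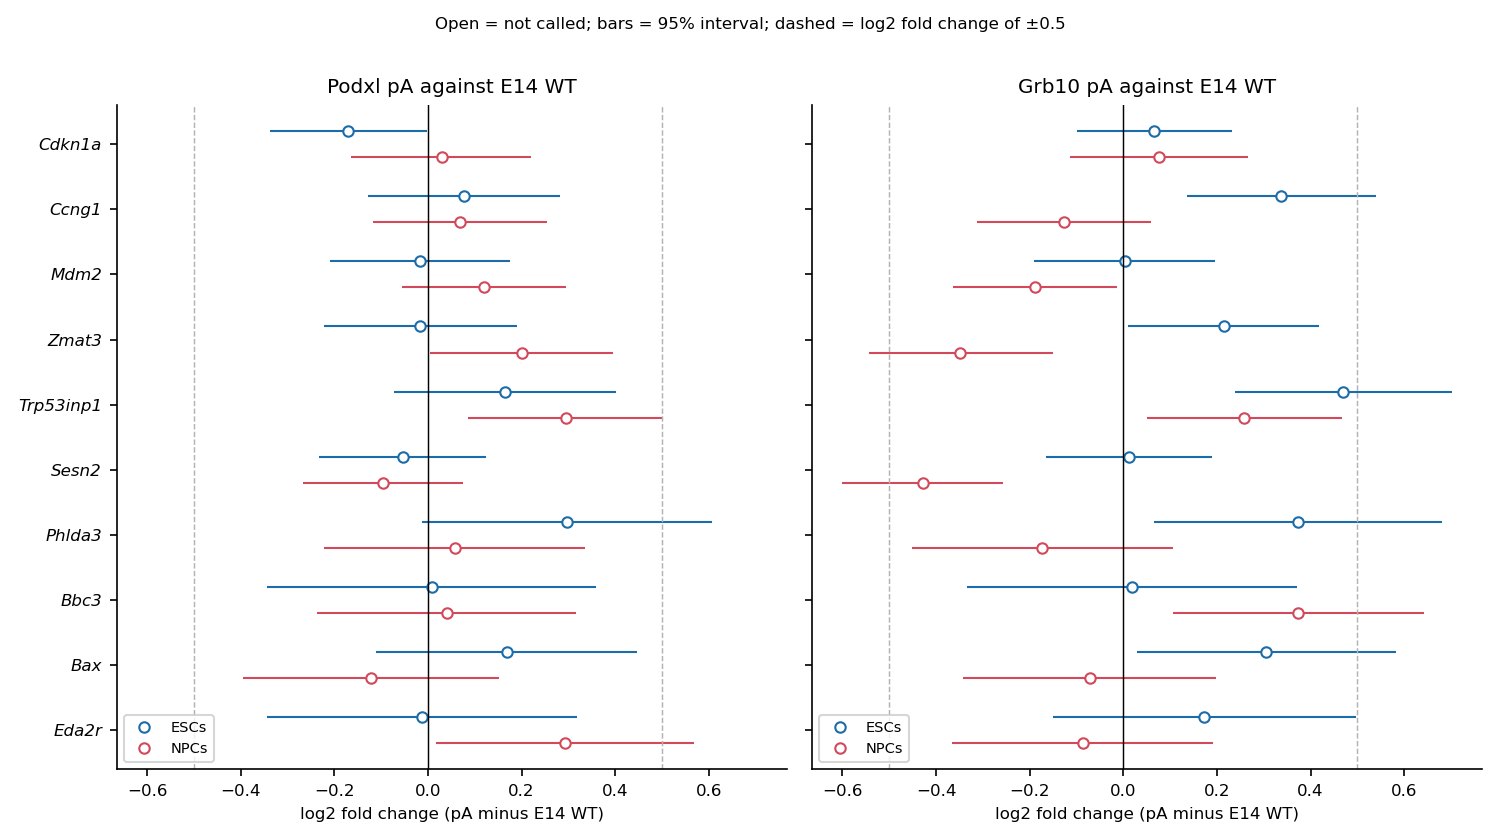
Log2 fold change of Podxl pA (left) and Grb10 pA (right) relative to E14 WT (x axis) for the 10 genes, in ESCs (blue) and NPCs (red), with 95% intervals as bars and dashed lines at 0.5 in either direction. All points are open, since none was called, and in Grb10 pA the ESC and NPC points of Zmat3, Ccng1 and Sesn2 lie furthest apart, together with Phlda3.

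Trp53 RNA was lower in NPCs than in ESCs in all 5 lines, and the fall was called in the rescue lines. Its RNA was at 538 and 544 CPM in ESC-WT and 248 and 316 CPM in NPC-WT, and at 407 and 373 CPM in ESC-ΔZF1 and 251 and 234 CPM in NPC-ΔZF1. The WT log2 fold change of -0.94 was -0.78 without NPC-WT replicate 1 and -1.12 without replicate 2. These falls, 1.92-fold and 1.61-fold, were called, with adjusted p-values of 0.000202 and 0.00151 by edgeR. In the second table the NPC libraries were below the ESC libraries in every line, with log2 fold changes of -0.49 in E14 WT, -0.36 in Podxl pA and -0.48 in Grb10 pA, all under the fold cutoff. It passed the cutoff in E14 WT without ESC replicate 2 or 3, at -0.56 and -0.53, and in Grb10 pA without ESC replicate 1 or NPC replicate 2, at -0.51 and -0.58. In ΔZF1 relative to WT its value was -0.47 ± 0.13 (SE) in ESCs, where Trp53 shares chromosome 11 with Ccng1, and -0.02 with the median of that chromosome taken out. In NPCs the value was -0.22, and 0.35 with that median taken out, and Trp53 was not called in either fit. Without NPC-WT replicate 1 and 2 in turn the NPC value was -0.38 and -0.04.

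Ppm1d encodes the phosphatase Wip1, a p53 target that shuts off the response, and it also lies on chromosome 11. Its log2 fold change on differentiation ran from 0.26 to 0.94 over the 5 lines. The rise was called in 2 of them, the WT rescue and Grb10 pA (0.565). In the WT rescue it rose from 50.1 and 52.6 CPM in ESC-WT to 94.0 and 104 CPM in NPC-WT, 1.92-fold. It was lower in NPC-ΔZF1, at 55.1 and 51.8 CPM, with a log2 fold change of -0.89 ± 0.11 (SE) relative to NPC-WT. Both values stayed called without either NPC-WT library, at 1.01 and 0.87 for the rise and -0.96 and -0.82 for the difference of ΔZF1 from WT. With the chromosome 11 median taken out, however, the difference of ΔZF1 from WT in NPCs was -0.32 with an adjusted p of 0.0649 (edgeR) and was not called. In ESC Grb10 pA relative to ESC E14 WT it fell by 0.60 on the log2 scale, at 25.3, 17.6 and 19.4 CPM against 31.4, 33.4 and 30.7 CPM. Mdm4, the partner of Mdm2 in holding p53 down, fell in NPC-WT, with 101 and 119 CPM in ESC-WT and 90.9 and 62.6 CPM in NPC-WT and a log2 fold change of -0.51 ± 0.17 (SE), and was lower but not called in NPCs of the other 4 lines. Without NPC-WT replicate 2 that fall was -0.29 and no longer called, and without replicate 1 it was -0.83. Of the regulators, 3 of 18 tested rose and 0 fell on differentiation in E14 WT (median log2 fold change -0.04), where 16.5% of all genes rose and 16.3% fell. In the WT rescue 3 of 19 rose and 6 fell, with a median of -0.09, where 22% of all genes rose and 19.9% fell. With NPC-WT replicate 1 or 2 left out, the counts of that list in the WT rescue were 4 risen and 9 fallen and 2 risen and 5 fallen, in fits that called 48.1% and 43.2% of all genes in either direction. In NPC-ΔZF1 relative to NPC-WT, 5 of 19 regulators were higher and 1, Ppm1d, was lower, with a median of 0.24, where 7.19% of all genes rose and 10.5% fell. Those counts were 8 higher and 2 lower without NPC-WT replicate 1 and 3 higher and 2 lower without replicate 2, where 34.9% and 17.7% of all genes were called. With the chromosome 11 median taken out they were 5 higher and 0 lower.

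A wider list of p53 targets moved in both directions on differentiation. In E14 WT 11 of 29 rose and 3 fell (median log2 fold change 0.29), in Podxl pA 11 of 29 rose and 3 fell (median log2 fold change 0.31) and in Grb10 pA 10 of 29 rose and 5 fell (median log2 fold change 0.30). In the rescue lines 10 of 31 rose and 4 fell (median log2 fold change 0.26) for WT and 12 of 31 rose and 5 fell (median log2 fold change 0.14) for ΔZF1. The shares of all genes that rose and fell were 16.5% and 16.3% in E14 WT and 17.1% and 14.7% in Podxl pA. They were 17.2% and 17.4% in Grb10 pA, 22% and 19.9% in the WT rescue and 20.4% and 16.9% in the ΔZF1 rescue. The kinase gene Plk2 and the growth arrest gene Gadd45a led the rises in E14 WT, at 1.93 and 1.33 on the log2 scale, and Plk3 led in both rescue lines, at 2.01 and 1.60. Tigar, a regulator of glycolysis, was among the 2 largest falls in all 5 lines, with values from -1.45 in ΔZF1 to -1.19 in the WT rescue. Relative to NPC-WT, 3 of 31 of these genes were higher in NPC-ΔZF1 and 2 were lower, where 7.19% of all genes rose and 10.5% fell. Dram1 at 1.28 and Pmaip1 at 0.94 on the log2 scale led the higher genes, and the lower ones were Fdxr at -0.88 and Btg2 at -0.52. Without NPC-WT replicate 1 there were 4 higher and 5 lower, and without replicate 2 3 higher and 4 lower, in the fits that called 34.9% and 17.7% of all genes. In ESCs 1 gene, Fdxr, was lower in ESC-ΔZF1, at -0.78, where 3.61% of all genes were called in either direction. Fdxr too lies on chromosome 11, and with the median of that chromosome taken out it was not called, at -0.31 in NPCs and -0.32 in ESCs (edgeR adjusted p = 0.255 and 0.452). In Podxl pA relative to E14 WT none of 29 was called in ESCs or NPCs, where 0.339% and 0.55% of all genes were called in either direction. In Grb10 pA 1 of 29 was higher and 3 were lower in ESCs, and 4 were higher and 4 lower in NPCs. Of all genes, 9.09% were called in either direction in ESCs and 16.5% in NPCs there.

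Among Bcl2 family and caspase genes, 5 of 18 rose and 3 fell (median log2 fold change 0.23) in NPC E14 WT, where 16.5% of all genes rose and 16.3% fell. In NPC-WT 5 of 19 rose and 5 fell (median log2 fold change 0.05), where 22% of all genes rose and 19.9% fell. The BH3-only genes moved in both directions. Bcl2l11 (BIM) rose by 1.82 and Bmf by 1.27 on the log2 scale in E14 WT, as Bbc3 did, while Bid fell by 1.17. Bak1, the partner of Bax in the mitochondrial membrane, fell by 1.10. Between NPC-ΔZF1 and NPC-WT, 7.19% of all genes were higher in NPC-ΔZF1 and 10.5% lower. In NPC-ΔZF1 relative to NPC-WT, 1 of 19 rose and 3 fell (median log2 fold change -0.01), with 3 risen and 4 fallen without NPC-WT replicate 1 and 0 risen and 4 fallen without replicate 2, in the same fits. Of 15 G2/M genes, 1 rose and 0 fell in NPC E14 WT, the gene being Cdc20 at 0.78, and the median over the list was 0.04, beside the fall of Cdkn1a in the same libraries. In Podxl pA 1 of 15 rose and 0 fell (median log2 fold change 0.04), where 17.1% of all genes rose and 14.7% fell. In Grb10 pA, where Cdkn1a fell as well, 4 of 15 rose and 0 fell (median log2 fold change 0.34), against 17.2% of all genes risen and 17.4% fallen. Of the 15, 11 had an unadjusted p under 0.05 in edgeR in Grb10 pA, beside 8 in Podxl pA and 6 in E14 WT. In the rescue lines 7 did so for WT and 4 for ΔZF1. In NPC-WT 2 rose and 2 fell relative to ESC-WT, with 2 risen and 3 fallen without NPC-WT replicate 1 and 1 risen and 1 fallen without replicate 2.

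Over the 10 group means, with log2 CPM centred on each gene's own mean within its table, the genes nearest to Cdkn1a of 13226 compared were Hs3st3b1 (0.088), Spsb1 (0.139) and Elovl7 (0.165), where the value is the root mean square log2 difference. Those nearest to Mdm2 were Ipo13 (0.086), Smo (0.097) and Ercc5 (0.105), of which Ercc5 is on the wider list of p53 targets. Cdkn1a and Mdm2 themselves varied by 0.717 and 0.439 on that scale. The 10 means share their libraries and span both tables, and no test was made of this likeness.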

How the data were processed

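Mouse E14 ESCs and NPCs were profiled by rRNA-depleted, paired-end RNA-seq in 26 libraries of 10 groups, which were mapped from the sample labels. According to the study's methods, the authors aligned reads with STAR to mm10 and counted them per gene with featureCounts; versions and annotation are not given in the sources used here. The deposited values are whole-number counts per gene, not normalized, in 1 table for the rescue lines and 1 for the truncation lines. The authors' processing used the unstranded setting, per the file names, so reads of overlapping genes on opposite strands cannot be told apart. For the truncation lines, 3 columns matched no sample and were not used. No column of the authors' own comparisons was used.

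Each table was analysed on its own with edgeR 4.0.16 and limma 3.58.1 in R 4.3.3. Low genes were removed with filterByExpr, which left 16641 and 13268 of 55291 rows, library sizes were scaled by TMM, and glmQLFit and glmQLFTest were fitted over all groups of a table with Benjamini-Hochberg adjustment over all genes tested. The cutoffs for a call, taken from the study, were 0.05 for the adjusted p and 0.5 for the size of the log2 fold change. The study's own tool was DESeq2. Fold changes are edgeR's estimates with their SE and 95% intervals. CPM values are TMM-scaled, with a prior count of 2 where log2 CPM was used. The 10 genes and the gene lists were chosen with earlier results of these data known. All 10 genes are reported. Beyond them, up to 2 called genes with the largest rises and 2 with the largest falls of each list were named per comparison where the normalized counts of the compared groups averaged 50 or more, and Trp53, Mdm4 and Ppm1d were named as regulators. For the profiles the 3 nearest genes were named. The fits were tested on simulated data. Replicates that differed by less than sampling noise were looked for and none were found. Replicate numbers were checked for pairing, which was not found in the truncation table and could not be decided in the rescue table. No block entered the main model. Alternatives were DESeq2 1.42.0, RLE scaling, no filter, at least 10 counts in every library, a replicate block, the compared groups alone, the chromosome 11 median taken out and each library left out in turn. For the wider lists, Mdm4 and Ppm1d, leaving out each NPC-WT library was added after seeing the data, as was taking out the chromosome 11 median for the regulators, the wider p53 targets, Ppm1d and Fdxr.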

Additional observations from a re-analysis of the deposited data

Results flagged for a closer look

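The effect of Grb10 pA relative to E14 WT differed between NPCs and ESCs at an adjusted p of at most 0.05 for 3 of the p53 targets, by edgeR's test of the difference itself with Benjamini-Hochberg adjustment over all genes, where 7.04% of all genes did. With the fold cutoff of 0.5 as well, Zmat3 was called and Ccng1 and Sesn2 were not. For Zmat3 the log2 effect was 0.21 in ESCs and -0.35 in NPCs, a difference of -0.56 with an adjusted p of 0.0135. For Ccng1 it was 0.34 and -0.13, a difference of -0.46 with an adjusted p of 0.0347 by edgeR. For Sesn2 it was 0.01 and -0.43, a difference of -0.44 with an adjusted p of 0.026 by edgeR.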

How the results depend on the processing

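The count of p53 targets called did not move in any alternative for E14 WT (9) or Podxl pA (8) on differentiation, nor for the Podxl pA comparisons, NPC Grb10 pA or ESC-ΔZF1 (0 each). Of 1936 log2 fold changes of the 10 genes and Trp53 under the alternatives, 1870 kept their side of the cutoffs. A call was lost by 25 and gained by 40, and 1 reversed. Among the 1870, 63 values that were called in neither fit changed sign, the largest of them 0.36 in size in the main fit. For the count in NPC-ΔZF1 relative to ESC-ΔZF1, 3 became 5 without the filter, 5 with DESeq2 and 5 with the compared groups alone (Bbc3 and Trp53inp1 were added), and 2 to 3 with libraries left out. The count in NPC-ΔZF1 relative to NPC-WT, 3, was 4 without the filter (Eda2r was added as higher, at 0.53), 1 with at least 10 counts in every library, 0 with the compared groups alone, 1 with the chromosome 11 median taken out, and 0 to 4 with libraries left out. The difference of the ΔZF1 effects, 0, was 2 without the filter, 1 with DESeq2, and 0 to 6 with libraries left out, where Trp53inp1 ranged from -0.50 to 0.51. With libraries left out, ESC Grb10 pA gave 0 to 1 and the difference of the Grb10 pA effects 1 to 3. A group with 1 library left was assumed to vary like the others. The cause was not tested.

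Same-numbered libraries of the truncation table did not vary together. Their correlations across genes were -0.09 to 0.08, beside -0.14 to 0.17 for differently numbered ones. For rescue libraries the correlations were -0.02 to 0.13. With 2 libraries per group, differently numbered ones give the same values with the sign turned, so this check cannot decide on pairing there. With the replicate block, NPC-ΔZF1 relative to ESC-ΔZF1 gave 4 calls in place of 3, with Bbc3 at 0.55, and no other call on the 10 genes changed.

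Counts over all genes moved more. ESC-ΔZF1 gave 601 calls, 1088 without the filter, 1601 with the compared groups alone and 245 with the chromosome 11 median taken out, where the share called higher went from 35.6% to 55.1%, and 3 to 15 with libraries left out. NPC-ΔZF1 relative to NPC-WT gave 2936, 1222 with the compared groups alone and 897 to 5811 with libraries left out. The difference of the ΔZF1 effects gave 449, 1139 without the filter, 712 with DESeq2 (shares called higher of 58.8%, 47.2% and 48.2%) and 49 to 4651 with libraries left out. Podxl pA gave 45 calls in ESCs (94 without the filter, 22 with the compared groups alone), 73 in NPCs (45 with at least 10 counts in every library, 133 with the compared groups alone) and 13 for the difference (108 without the filter, 46 with DESeq2), and 12 to 37, 37 to 57 and 6 to 26 with libraries left out. With at least 10 counts in every library, the calls between NPCs and ESCs went from 4351 to 2683 in E14 WT, from 4224 to 2533 in Podxl pA and from 4590 to 2860 in Grb10 pA, where fewer genes were tested. The difference of the Grb10 pA effects gave 783 calls, 48.4% of them higher, and without the filter 844, 63.3% of them higher, and 502 to 949 with libraries left out.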
